A study of Homo sapiens with 2 samples.

Results

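The FOXO transcription factor genes FOXO1 and FOXO3, 4 genes known as FOXO targets or linked to them (CCNG2, SESN3, BCL6 and KLHL24) and 4 genes of the YPEL family (YPEL1, YPEL2, YPEL3 and YPEL5) were examined in Seg-1 cells. These 10 genes, of 19775 genes with a probe set annotated to a single gene symbol, were chosen by name with the FGF-AS siRNA over control siRNA ratios of these same arrays in view, so those ratios are a description and support nothing further. Every probe set annotated to exactly 1 of the 10 symbols was taken, which gave 37 probe sets.

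The study set 1 culture transfected with FGF-AS siRNA, which targets an antisense RNA of the FGF2 growth factor gene, against 1 culture that received a negative control siRNA without homology to known genes (control siRNA below). Both were Seg-1 cells harvested 72 hours after transfection with siRNA at between 25 and 200 nM, and which concentration either culture received is not given in the labels. Seg-1 was first described as esophageal and was later found to be the lung line H460, and no untransfected culture was analysed here. RNA was measured on Affymetrix U133 Plus 2.0 microarrays, where each transcript is read by groups of short oligonucleotides, called probe sets, with 1 signal per probe set.

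FOXO proteins are transcription factors that growth factor signalling holds in check: the kinase AKT phosphorylates them, and 14-3-3 proteins then keep them out of the nucleus. When this signalling is low, they switch on genes that slow the cell cycle, restrain growth signalling and resist stress. This control acts on the protein, which an mRNA array does not measure. YPEL (yippee-like) genes encode small, highly conserved zinc-binding proteins, of which YPEL3 is known to restrain the growth of human cells and YPEL5 is a subunit of the CTLH ubiquitin ligase complex.

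With FGF-AS siRNA most of these genes gave a lower signal, with FOXO3 as the exception. Each gene was represented by its brightest probe set, and it counted as measured when the mean of both arrays was at least 23.9, the median of such means over probe sets. Of the 10 genes, 9 were measured, 8 of these were lower and 1 was higher with FGF-AS siRNA. KLHL24 and YPEL3 were at least 2-fold lower, which is 2 of 9 genes, and no measured member was at least 2-fold higher. YPEL3 passed the signal minimum only through the control array, which favours a low ratio. Neither gene was past 2-fold with the larger offset of 24.3, and a stricter signal minimum of 145.2 left both out. The 12352 measured genes as a whole give the background: 2.72% were at least 2-fold lower, 2.05% were at least 2-fold higher and 51.8% had a log2 ratio below 0. The median log2 ratio of the 9 genes was -0.44, beside -0.02 for all measured genes. Because the members were proposed from these ratios, nothing is read from the excess over those shares. With 1 array per group there is no replicate check and no p-value, and in a bulk culture fewer cells with a transcript and less of it per cell cannot be told apart.

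The log2 ratio was taken as FGF-AS siRNA over negative control siRNA after an offset of 6.1 was added to each signal. The only error available was the disagreement between probe sets of the same gene, an SD of the log2 ratio of 0.36 among probe sets with a mean signal of at least 145.2 (called brighter here) and of 0.58 among dimmer ones. It covers neither culture nor hybridisation. Among the 9 measured genes, 6 were brighter and 3 (KLHL24, YPEL2 and YPEL3) were dimmer. The share of genes at least 2-fold lower was 1.11% among brighter and 5.4% among dimmer genes.

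The targeted transcript was lower on the FGF-AS siRNA array. NUDT6, from which that antisense RNA is transcribed, stood at 27.7% and 29.1% of its control siRNA signal on 2 probe sets. The labelled cell type was checked against markers. Of 8 epithelial markers 5 were measured, and none was past 2-fold. The simple epithelial keratin genes KRT8 (3780.9 with FGF-AS siRNA, 3475.7 with control siRNA) and KRT18 (9327.2 with FGF-AS siRNA, 10152.5 with control siRNA) were bright, and the cadherin gene CDH1 was under the signal minimum. Of 8 lung epithelium markers 5 were measured, 2 above and 3 below 0. The brightest of these was the homeobox gene HOPX at 519.4 with FGF-AS siRNA and 766.8 with control siRNA. The surfactant gene SFTPC, at 59.1 with FGF-AS siRNA and 14.7 with control siRNA, was the only one past 2-fold. SFTPC passed the signal minimum only through the FGF-AS siRNA array, which favours a high ratio. The lung lineage factor gene NKX2-1 was under the minimum. Of markers of other cell types, 3 of 7 fibroblast, 4 of 8 leukocyte and 1 of 5 endothelial genes were measured. The summed signal of the measured fibroblast markers was 287.2 with FGF-AS siRNA and 523.2 with control siRNA. Most of that difference came from the collagen gene COL3A1, at 104.6 with FGF-AS siRNA and 316.4 with control siRNA, while COL1A1 gave 151.6 with FGF-AS siRNA and 164.3 with control siRNA. The summed signal of the leukocyte markers was 188.6 with FGF-AS siRNA and 202.9 with control siRNA. Their part in the results below was not tested.

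**Figure D1:**
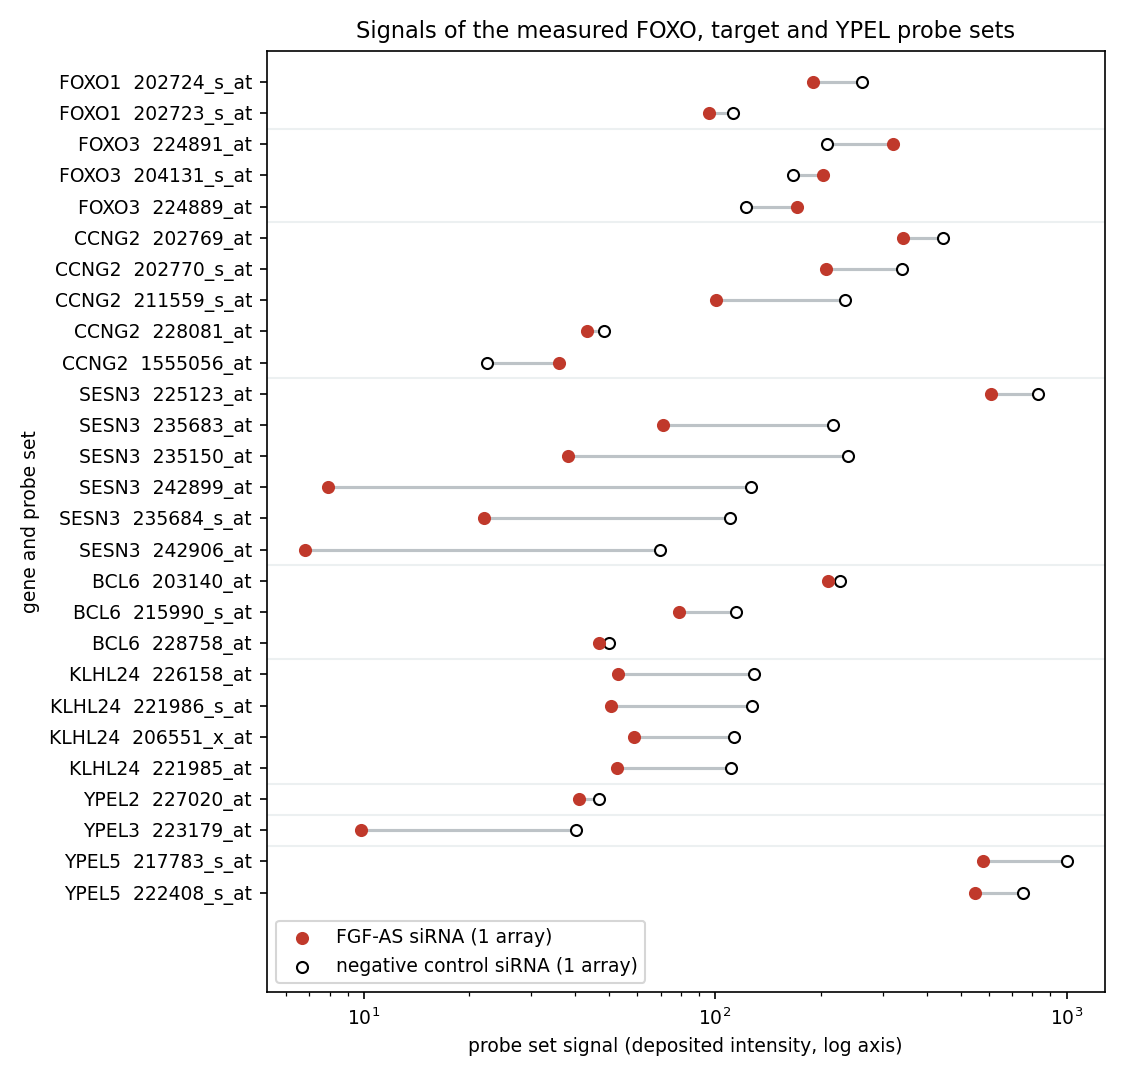
Signal of the 27 measured probe sets of the 9 measured genes (horizontal log axis, deposited intensity) on the FGF-AS siRNA array (red) and the negative control siRNA array (open), 1 row per probe set. Red lies to the left in 23 rows and to the right in 4, which are the 3 FOXO3 rows and 1 dim CCNG2 row.

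The FOXO factor genes went opposite ways on their brightest probe sets. On the brightest probe set of FOXO1 (202724_s_at) the signal was 190.3 with FGF-AS siRNA and 261.1 with control siRNA (log2 ratio -0.44). On its second measured probe set (202723_s_at) it was 95.9 with FGF-AS siRNA and 112.7 with control siRNA (log2 ratio -0.22). Both ratios were below 0, and only that of the brighter probe set exceeded the SD of its class.

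The brightest probe set of FOXO3 (224891_at) gave 321 with FGF-AS siRNA and 207.9 with control siRNA, 1.53-fold higher (log2 ratio 0.61). Probe set 204131_s_at gave 202.6 with FGF-AS siRNA and 166.9 with control siRNA (log2 ratio 0.27), within the SD of 0.36. Probe set 224889_at gave 170.9 with FGF-AS siRNA and 122.7 with control siRNA (log2 ratio 0.46). All 3 measured probe sets of FOXO3 alone were thus higher with FGF-AS siRNA, and 1 of them was beyond 1.5-fold, a size reached by 7.96% of all measured genes and by 5.75% of brighter ones in the higher direction. Probe sets annotated to both FOXO3 and its near-identical copy FOXO3B did not follow. The brightest of these gave 145 with FGF-AS siRNA and 140.6 with control siRNA (log2 ratio 0.04), and the next 48.7 with FGF-AS siRNA and 65.9 with control siRNA (log2 ratio -0.39). The direction for FOXO3 therefore rests on probe sets annotated to FOXO3 alone.

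SESN3 and CCNG2 are both known FOXO targets that act against growth. SESN3 encodes a sestrin, a protein that holds back the growth-promoting kinase complex mTORC1. Its brightest probe set (225123_at) gave 611.3 with FGF-AS siRNA and 831.1 with control siRNA (log2 ratio -0.44), a difference little larger than the SD of 0.36. The other 5 measured probe sets of SESN3 were far lower with FGF-AS siRNA. Probe set 235683_at gave 71.3 with FGF-AS siRNA and 216.9 with control siRNA (log2 ratio -1.53). Probe set 235684_s_at gave 22 with FGF-AS siRNA and 110 with control siRNA (log2 ratio -2.05). Both were past 2-fold. Larger still was the difference on 235150_at, with 38.1 for FGF-AS siRNA and 238.8 for control siRNA (log2 ratio -2.47). The widest ratios came from 242906_at, with 6.8 for FGF-AS siRNA and 69.6 for control siRNA (log2 ratio -2.55), and from 242899_at, with 7.9 for FGF-AS siRNA and 126.2 for control siRNA (log2 ratio -3.24).

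On these 5 probe sets the FGF-AS siRNA signals ran from 6.8 to 71.3 and the control siRNA signals from 69.6 to 238.8. The lowest FGF-AS siRNA signals lie near the offset and cannot be told from background, so the ratios of 242899_at and 242906_at depend on it. With offsets from 1 to 24.3 the log2 ratio of 242899_at ran from -3.84 to -2.22 and that of 242906_at from -3.18 to -1.59, so both stayed past 2-fold. On 3 of the 5 (235684_s_at, 242899_at and 242906_at) the FGF-AS siRNA signal was under the signal minimum, so these counted as measured only through the control array. The size of the SESN3 difference therefore depended on the probe set and, on the dimmest ones, on the offset. On 235683_at and 235150_at, where both arrays were above the minimum, the log2 ratios were -1.53 and -2.47, beside -0.44 on the brightest.

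Low readings on secondary probe sets were common on these arrays. Of 10870 measured probe sets other than their gene's brightest, 8.3% were at least 2-fold lower and 1.81% at least 2-fold higher with FGF-AS siRNA, and among the dimmer of them 10.6% were at least 2-fold lower and 2.43% at least 2-fold higher. Their median log2 ratio was -0.14. The part of this array-wide tilt in the SESN3 values was not tested.

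CCNG2 encodes cyclin G2, an unconventional cyclin whose level is high in arrested cells. Its brightest probe set (202769_at) gave 342 with FGF-AS siRNA and 445.8 with control siRNA (log2 ratio -0.38). Probe set 202770_s_at gave 206.3 with FGF-AS siRNA and 340.5 with control siRNA (log2 ratio -0.71). Probe set 211559_s_at gave 100.8 with FGF-AS siRNA and 234 with control siRNA (log2 ratio -1.17), past 2-fold. These 3 brighter probe sets were all lower, and the log2 ratios furthest apart, those of 202769_at and 211559_s_at, differed by more than their SD. The dimmer ones did not follow. Probe set 228081_at gave 43.1 with FGF-AS siRNA and 48.4 with control siRNA (log2 ratio -0.15), and 1555056_at gave 36 with FGF-AS siRNA and 22.4 with control siRNA (log2 ratio 0.56), both within the SD of 0.58.

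BCL6 encodes a zinc finger repressor best known from germinal centre B cells, and FOXO factors are known to activate it. Its brightest probe set (203140_at) gave 209.3 with FGF-AS siRNA and 227.1 with control siRNA (log2 ratio -0.11). Probe set 215990_s_at gave 78.9 with FGF-AS siRNA and 114.7 with control siRNA (log2 ratio -0.51), and 228758_at gave 46.7 with FGF-AS siRNA and 49.8 with control siRNA (log2 ratio -0.08). All 3 ratios were below 0 and within the SD of their class, so a difference in BCL6 was not resolved.

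KLHL24 encodes a kelch protein that brings substrates to a cullin-3 ubiquitin ligase. It was lower on all 4 of its measured probe sets, and these agreed closely with each other. Probe set 226158_at gave 53 with FGF-AS siRNA and 129 with control siRNA, 2.29-fold lower (log2 ratio -1.19). Probe set 221986_s_at gave 50.5 with FGF-AS siRNA and 127.1 with control siRNA (log2 ratio -1.23). Short of 2-fold after the offset were 221985_at, with 52.5 for FGF-AS siRNA and 111 for control siRNA, and 206551_x_at, with 58.7 for FGF-AS siRNA and 113.1 for control siRNA (log2 ratio -0.88). Over these 4 probe sets the FGF-AS siRNA signals lay between 50.5 and 58.7 and the control siRNA signals between 111 and 129. With the offset of 24.3 the log2 ratio of 226158_at was -0.99, short of 2-fold.

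The log2 ratios of KLHL24 spanned 0.36, beside a median span of 0.88 among the 1160 genes with at least 4 measured probe sets. Of those 1160 genes, 8 were at least 1.5-fold lower on every measured probe set and 1 was at least 1.5-fold higher on every one. KLHL24 was the second lowest of the 8 by its least changed probe set, behind GLIPR1. The 1160 genes include some with more than 4 measured probe sets, and spans were wider there (median 1.02 among the 454 genes with at least 5). KLHL24 was chosen with these ratios in view, so nothing is read from its span or its rank. Probe sets of 1 gene read the same RNA on the same array and are not replicates of the cultures. All 4 probe sets were in the dimmer class, and a further probe set of KLHL24 was under the minimum at 4.9 with FGF-AS siRNA and 18.6 with control siRNA.

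**Figure D2:**
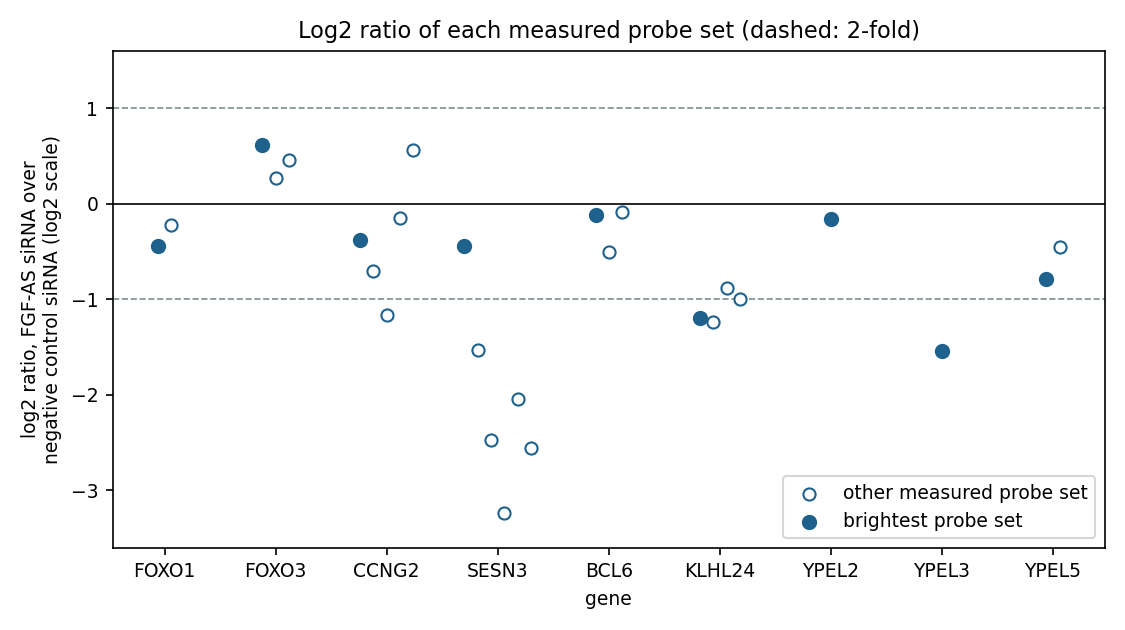
Log2 ratio (vertical axis, FGF-AS siRNA over negative control siRNA) of every measured probe set, by gene, with the brightest probe set of each gene filled. The 4 points of KLHL24 lie together near the lower 2-fold line, while SESN3 runs from -0.44 on its brightest probe set to -3.24.

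Of the YPEL genes, YPEL5 was the brightest. On 217783_s_at it gave 578.6 with FGF-AS siRNA and 1001 with control siRNA, 1.72-fold lower (log2 ratio -0.78). Its other probe set (222408_s_at) gave 547.7 with FGF-AS siRNA and 752 with control siRNA (log2 ratio -0.45). Both ratios were below 0 and larger than the SD of 0.36. At least 1.5-fold lower were 5.75% of brighter genes and 9.52% of all measured genes, and YPEL5 ranked 625th from the lowest of 12352.

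YPEL3 gave 9.8 with FGF-AS siRNA and 40.3 with control siRNA on 223179_at (log2 ratio -1.55). The mean signal of this probe set, 25.1, was barely above the minimum, which it passed only through the control array. With offsets from 1 to 24.3 the log2 ratio ran from -1.94 to -0.92, so the 2-fold size depends on the offset. The second probe set of YPEL3 was under the minimum, at 2.4 with FGF-AS siRNA and 6.4 with control siRNA. YPEL2 gave 41 with FGF-AS siRNA and 46.6 with control siRNA on 227020_at (log2 ratio -0.16), well within the SD of 0.58.

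YPEL1 was not measured. Its 3 probe sets read 14, 14.2 and 10.1 with FGF-AS siRNA and 22, 0.5 and 3.9 with control siRNA, and no ratio is drawn from them. In all, 10 of the 37 probe sets were under the minimum, with signals between 0.5 and 25.8. The highest of these signals was that of a YPEL2 probe set (1556420_s_at) that read 25.8 with FGF-AS siRNA and 7.4 with control siRNA, against the direction of the measured YPEL2 probe set.

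**Figure D3:**
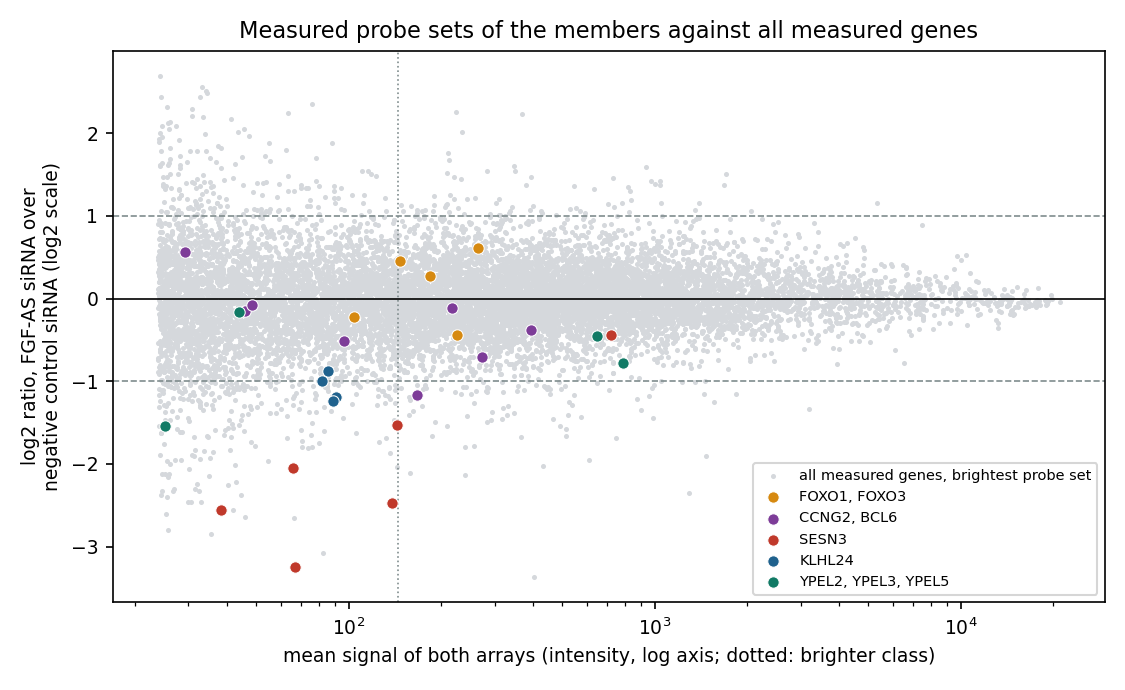
Mean signal of both arrays (horizontal log axis, intensity) and log2 ratio of FGF-AS siRNA over negative control siRNA (vertical axis) for the members' 27 measured probe sets (coloured) and the brightest probe set of all 12352 measured genes (grey). Ratios scatter more widely at low signal, where the YPEL3, KLHL24 and secondary SESN3 probe sets lie, while YPEL5 and the brightest SESN3 probe set lie in the narrower, brighter part.

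Counted by probe set, 27 of the members' 37 were measured, and 23 of these were lower and 4 higher with FGF-AS siRNA, where 56.7% of all measured single-gene probe sets were lower. At least 2-fold lower were 9 of 27, 7 of them from SESN3 and KLHL24, and none was at least 2-fold higher. Among these 9, 3 SESN3 probe sets and that of YPEL3 counted as measured only through the control array, which favours a low ratio. Over all 23222 measured single-gene probe sets 5.33% were at least 2-fold lower and 1.94% at least 2-fold higher. This count gives SESN3, with 6 measured probe sets, more weight than any other member.

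Promoter sequences from RefSeq (GRCh38.p14), each covering 250 bases before to 50 bases after a transcription start, were matched by symbol for 9 of the 10 genes, which had 13 such windows; YPEL1 was not matched. Stretches from 100 bases before the start to 20 bases after it are shown for the genes that read lower on all of their measured probe sets with at least 1 past 1.5-fold: KLHL24 (chr3:183635523-183635642, plus strand), SESN3 (chr11:95232456-95232575, minus strand), YPEL5 (chr2:30146907-30147026, plus strand) and YPEL3 (chr16:30096194-30096313, minus strand). Capitals mark the first 20 transcribed bases.
KLHL24: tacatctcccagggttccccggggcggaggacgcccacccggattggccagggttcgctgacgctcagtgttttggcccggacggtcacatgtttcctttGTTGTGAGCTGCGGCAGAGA
SESN3: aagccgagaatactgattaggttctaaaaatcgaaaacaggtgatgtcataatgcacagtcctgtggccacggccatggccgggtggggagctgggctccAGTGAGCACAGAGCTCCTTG
YPEL5: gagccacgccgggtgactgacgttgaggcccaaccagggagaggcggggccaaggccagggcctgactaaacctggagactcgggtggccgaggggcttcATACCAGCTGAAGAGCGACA
YPEL3: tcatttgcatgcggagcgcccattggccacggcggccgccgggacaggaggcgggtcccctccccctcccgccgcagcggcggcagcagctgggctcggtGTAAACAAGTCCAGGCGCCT

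The FOXO core motif GTAAACA, searched on both strands, occurred in 1 of the members' 13 windows, that of YPEL3, where it forms bases 1 to 7 of the transcribed sequence above. It occurred in 3.42% of all 35116 windows. The CHR motif of cell cycle promoters, searched as TTTGAA (15.2% of all windows) and TTCGAA (1.45%), and the E2F motif, searched as TTTGGCGC (0.652%) and TTTCGCGC (0.515%), occurred in none of the 13. With only 1 match in the members' windows, no overlap between motifs was possible. The base composition of the 13 windows ran from 45% G and C (SESN3) to 79% (YPEL3), beside a median of 58.7% over all windows. These matches describe the letters of a short window and say nothing of binding.

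Other genes around the FOXO factors were taken as lists chosen with earlier results of these arrays known, and some genes stand in several lists. The paralogs of the members came first. The other sestrin genes were both lower: SESN2 gave 247.7 with FGF-AS siRNA and 733.5 with control siRNA (log2 ratio -1.54, and -0.79 on its second probe set), and SESN1 gave 233.8 with FGF-AS siRNA and 373.3 with control siRNA (log2 ratio -0.66). The cyclin genes CCNG1 and CCNI gave log2 ratios of -0.29 and -0.35. The other FOXO genes were dim and higher, with FOXO4 at 36.5 with FGF-AS siRNA and 25.8 with control siRNA (log2 ratio 0.42) and FOXO6 at 67.3 with FGF-AS siRNA and 49.7 with control siRNA (log2 ratio 0.40), both within the SD of 0.58. The kelch genes KLHL20, KLHL21 and KLHL22 gave log2 ratios of 0.03, -0.21 and 0.01 on their brightest probe sets, beside -1.19 for KLHL24. The other 2 measured probe sets of KLHL20 gave -1.10 and 0.14. YPEL4, KLHL6 and BCL6B were under the minimum. Of 9 measured paralogs, 1 was at least 2-fold lower and none at least 2-fold higher, beside 2.72% and 2.05% of all measured genes.

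Of 39 further known FOXO targets, 29 were measured, with 20 below and 9 above 0 and a median log2 ratio of -0.29, beside -0.02 for all measured genes. With _s_at and _x_at probe sets left out, which left 21 of these genes, their median was -0.14. The list was not sorted by whether FOXO factors raise or lower a gene, so its median gives no direction of FOXO activity. PLK1 and CCNB1 stand in both this list and that of mitosis. At least 2-fold lower were 2 of the 29, and none was at least 2-fold higher. Of all measured genes, 51.8% were below 0, 2.72% at least 2-fold lower and 2.05% at least 2-fold higher. TXNIP, an inhibitor of glucose uptake and thioredoxin, gave 244.2 with FGF-AS siRNA and 784.1 with control siRNA (log2 ratio -1.66). ERBB3, a receptor of the EGF receptor family, was dim at 16.7 with FGF-AS siRNA and 62.5 with control siRNA (log2 ratio -1.59). That probe set passed the signal minimum only through the control array, which favours a low ratio, and the other measured probe set of ERBB3 gave -1.40.

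Upstream of the FOXO proteins, the 21 measured genes of PI3K-AKT signalling had a median log2 ratio of -0.02, with 9 above and 12 below 0, and this median was above 0 under each of the 3 rescalings tried (median centring, quantile normalization and loess). IRS1, the adaptor between insulin and IGF receptors and PI3K, was the only one of them past 2-fold on its brightest probe set. That probe set gave 421.8 with FGF-AS siRNA and 205.7 with control siRNA (log2 ratio 1.01). The 2 other measured probe sets of IRS1 gave 0.78 and 0.85, short of 2-fold. The 28 genes that modify or bind FOXO proteins had a median of 0.10, with 16 above and 12 below 0, and this median was -0.10 when each gene was read by the mean of its probe sets. At least 2-fold higher among them was YWHAH, a 14-3-3 gene, at 584.5 with FGF-AS siRNA and 207.2 with control siRNA (log2 ratio 1.47). At least 2-fold lower was MDM2, a ubiquitin ligase gene, at 816.7 with FGF-AS siRNA and 1649.7 with control siRNA (log2 ratio -1.01). The 7 other measured probe sets of MDM2 ran from -3.59 to -0.71, so the size depended on the probe set. The other measured 14-3-3 genes had log2 ratios between -0.21 (YWHAZ) and 0.19 (YWHAB) on their brightest probe sets. Their other measured probe sets ran from -1.17 (YWHAZ) to 0.22 (YWHAQ).

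Of the processes linked to the members, the list furthest from 0 was that of mitosis. The 21 measured genes of the DREAM complex and quiescence had a median log2 ratio of -0.19, and 2 dim genes were past 2-fold. These were LIN54, a DREAM subunit gene, at 18.5 with FGF-AS siRNA and 48.5 with control siRNA (log2 ratio -1.15), and CDKN2D, a cyclin-dependent kinase inhibitor gene, at 47.4 with FGF-AS siRNA and 14.1 with control siRNA (log2 ratio 1.41). LIN54 passed the signal minimum only through the control array and CDKN2D only through the FGF-AS siRNA array, which favours a large ratio in each. In the sestrin, GATOR and mTORC1 list, 26 genes had a median of -0.06, which was 0.01 after median centring, and SESN2 was the only gene past 2-fold. The 14 measured BCL6 corepressor genes had a median of 0.11, and only the dim histone deacetylase gene HDAC5 was past 2-fold. Its brightest probe set gave 13.3 with FGF-AS siRNA and 71.9 with control siRNA (log2 ratio -2.01). That probe set passed the signal minimum only through the control array, which favours a low ratio, and the other measured probe set of HDAC5 gave -0.77. The 20 mitosis genes had a median of 0.56, with 19 above 0 on their brightest probe sets, where 51.8% of all measured genes were below 0. KIF11, a spindle motor, was past 2-fold at 970 with FGF-AS siRNA and 435.5 with control siRNA (log2 ratio 1.14). The other measured probe sets of the mitosis genes ran from -0.60 (BIRC5) to 0.58 (MKI67). With each gene read by the mean of its probe sets, the mitosis median was 0.44. The higher mitosis signals stood beside the lower signals of the members on the same 2 arrays, and no relation between them could be tested.

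**Figure D4:**
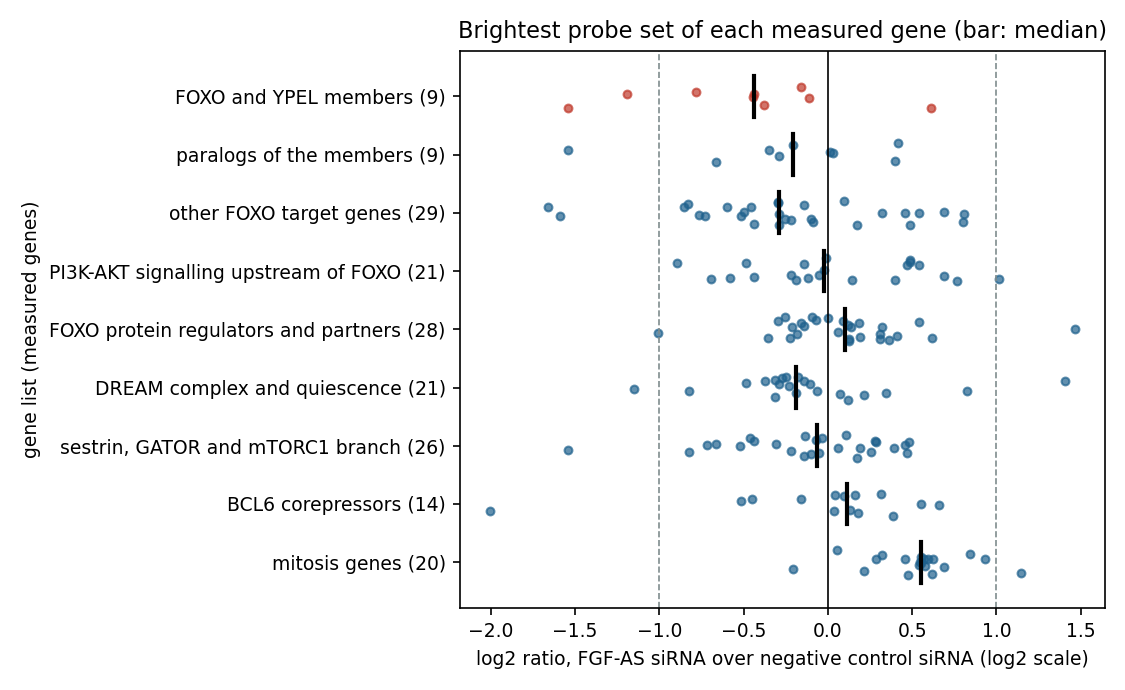
Log2 ratio of FGF-AS siRNA over negative control siRNA (horizontal axis) for the brightest probe set of each measured gene, by list, with the median as a bar and the number of measured genes in brackets. The medians run from -0.44 (FOXO and YPEL members) to 0.56 (mitosis genes), and dashed lines mark 2-fold.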

How the data were processed

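The deposited values were probe set intensities on a linear scale, 1 array per group. GCOS and MAS5 are named in the submitters' processing notes, without a scaling target, so how the arrays were scaled against each other is unknown. Median signals were 23.1 with FGF-AS siRNA and 25.6 with negative control siRNA. The number of arrays limits the precision, detection calls were not used here, and a low signal cannot be told from background.

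Of 54613 probe sets other than Affymetrix controls, 41091 carried a single gene symbol in the platform annotation, and 41037 of these were matched by gene identifier to RefSeq symbols. Probe sets with several symbols (1801) or none (11721) were not named. An offset of 6.1 (25th percentile of signals) was added before taking log2, which understates the change of dim genes. Calculations used Python with numpy 2.4.6, pandas 2.3.3 and statsmodels 0.14.6 (loess), and were checked on simulated data. The simulated noise was the same at every signal, so the check does not cover the wider scatter of dimmer probe sets.

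The 10 members and the gene lists were chosen with earlier results of these data known. Named beyond the members and NUDT6 were all measured paralogs and, in each other list except the cell type markers, the genes past 2-fold or else the gene furthest from 0. GLIPR1, YWHAZ, YWHAB, BIRC5, MKI67, HOPX, SFTPC, COL3A1 and COL1A1 were named after their values were seen. KRT8, KRT18, CDH1 and NKX2-1 were named for the check of cell type. The alternatives were other offsets, scalings, signal minimums and choices of probe set per gene.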

Additional observations from a re-analysis of the deposited data

How the results depend on the processing

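Under 10 alternatives (3 other offsets, median centring, quantile normalization, loess, the mean over probe sets, probe sets ending in _s_at or _x_at left out, a stricter signal minimum and none), no measured member changed sign where it gave a value. FOXO1 and YPEL5 gave none with _s_at and _x_at probe sets left out, and KLHL24, YPEL2 and YPEL3 gave none at the stricter minimum. The median log2 ratio of the members ran from -0.44 to -0.35. The count of members at least 2-fold lower was 0 with the offset of 24.3, the median signal, where KLHL24 gave -0.99 and YPEL3 -0.92. It was also 0 at the stricter minimum, which leaves out both genes, and it was 3 with the mean over probe sets, where SESN3 gave -2.05. No member was at least 2-fold higher under any of them. The ratio of FOXO3 ran from 0.45 to 0.71, of YPEL5 from -0.79 to -0.62, of FOXO1 from -0.45 to -0.33 and of BCL6 from -0.23 to -0.01. Of the lists, the mitosis median ran from 0.44 to 0.62 and that of other FOXO targets from -0.29 to -0.14. The medians of the paralogs (0.01 without _s_at and _x_at probe sets), PI3K-AKT signalling (up to 0.07), FOXO regulators (-0.10 with the mean over probe sets) and the sestrin branch (0.01 after median centring) changed sign. Among all genes past 2-fold, 43.0% were higher, a share that became 58.1% after loess, 53.6% after median centring and 60.4% after quantile normalization. No paired analysis was possible because each group has 1 array.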

Other observations

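Disagreement between a gene's brightest probe set and its other measured ones, as in SESN3, was also present in other genes around the FOXO factors, named here after their values were seen. The kinase gene AKT2 gave a log2 ratio of 0.14 on its brightest probe set, while 5 others ran from -3.20 to 0.72. The retinoblastoma gene RB1 gave -0.17 on its brightest and -3.20 on its other measured probe set. PIK3CB, a PI3K catalytic subunit gene, gave -0.58 and -2.43, and the pseudokinase gene TRIB1 gave 0.10 and -2.04. These values have no replicate check. Of 454 genes with at least 5 measured probe sets, 15 spanned at least as much in log2 ratio as SESN3 (2.80), which is itself counted. The median span among the 454 was 1.02.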
